A study of Mus musculus with 20 samples.

Results

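The Dlk1-Dio3 region of mouse chromosome 12 holds one of the densest groups of miRNAs of the genome, and its probes were followed here through 5 epithelial fractions of the ileum. The members were the probes of the normalized table that the array annotation places on chromosome 12 and names mmu-miR, both arms included, leaving out miR-203, miR-342, miR-345 and miR-681, which lie elsewhere on the chromosome. This gave 78 of the 655 probes of the array. RefSeq places miR-153 and miR-1190, both taken in by the rule, outside the interval between Dlk1 and Dio3, so that 76 probes of 52 hairpins belong to the region itself. The RefSeq hairpins among them span chr12:109563692-109743795 (GRCm38.p6), that is 180.1 kb, all on the plus strand. miR-666 and miR-544 had no hairpin entry in the RefSeq table used, and the RefSeq positions of their mature arms lie within this span.

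The arrays came from wild type male C57BL/6J mice of 4 months, with no treatment and no allele other than wild type in any fraction. The fractions V0, V1, V2 and V3 and the crypt fraction C1 run down the crypt-villus axis from the villus tip, and each was measured on 4 Illumina bead arrays, 20 in all. V0 was the cell suspension left by stirring the opened ileum in a citrate buffer in the cold, and the later fractions were shaken off by hand from the same piece, so that V0 was released in another way than the rest. The series description gives 4 mice, the labels do not say which arrays share a mouse, and p-values therefore measure the spread between arrays only.

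An imprinted gene is read from the copy of 1 parent only. In this region the protein-coding genes Dlk1, Rtl1 and Dio3 are read from the paternal chromosome, while the long non-coding RNAs Meg3, antisense Rtl1, Rian and Mirg, and with them the miRNAs, are read from the maternal chromosome. The miRNAs are abundant in the embryo, the placenta and the brain and scarce in most adult tissues. Each hairpin is cut into a 5p and a 3p arm, and the seed, bases 2 to 8 of the mature arm, selects its target mRNAs. Of the 78 members, 10 probes lay on the Meg3 side of the region, 10 in the Rtl1 antisense transcript, 4 on the Rian side and 52 on the Mirg side. The Rian side included miR-882, which RefSeq places past the annotated end of Rian.

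A mature sequence was found in RefSeq for 73 of the 76 probes of the region, 24 under the same name and 49 through the current name of the arm. The array uses older names, in which a star marks the arm thought minor, and their pairing with the current arms follows the history of miRNA naming and is not given in the files. The sequences below are those the results turn on, 5′ to 3′ with the seed in capitals, each with its current RefSeq name and GRCm38.p6 position on the plus strand. The first set holds arms whose values are given array by array.
miR-770-5p (miR-770-5p, chr12:109563710-109563731): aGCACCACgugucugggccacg
miR-770-3p (miR-770-3p, chr12:109563744-109563765): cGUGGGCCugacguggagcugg
miR-665 (miR-665-3p, chr12:109586368-109586387): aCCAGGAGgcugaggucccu
miR-127 (miR-127-3p, chr12:109592888-109592909): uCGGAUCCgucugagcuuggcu
miR-299 (miR-299a-5p, chr12:109710644-109710665): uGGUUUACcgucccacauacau
miR-1197 (miR-1197-3p, chr12:109712396-109712416): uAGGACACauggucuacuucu
miR-758 (miR-758-3p, chr12:109712858-109712876): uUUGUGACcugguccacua
miR-654-3p (miR-654-3p, chr12:109723270-109723291): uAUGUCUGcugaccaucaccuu
miR-382 (miR-382-5p, chr12:109733781-109733802): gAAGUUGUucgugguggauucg
miR-382* (miR-382-3p, chr12:109733819-109733840): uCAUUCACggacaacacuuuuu

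The second set holds the probes that share a seed. Among the 73 sequences only 2 seeds occurred more than once, GGUAGAC in miR-379 and miR-1193 and UGGAUAU in miR-376b* and miR-376c*. In the RefSeq table no other mouse miRNA carried either of them.
miR-379 (miR-379-5p, chr12:109709065-109709085): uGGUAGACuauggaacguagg
miR-1193 (miR-1193-5p, chr12:109715716-109715735): uGGUAGACcggugacguaca
miR-376b* (miR-376b-5p, chr12:109723471-109723492): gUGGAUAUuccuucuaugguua
miR-376c* (miR-376c-5p, chr12:109722733-109722754): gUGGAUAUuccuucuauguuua
The arms of a shared seed were not detected alike. miR-379 was detected on all 20 arrays and miR-1193 on none, while miR-376b* was detected on 17 and miR-376c* on 19.

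Detection was the first contrast within the region. A probe was taken as detected on an array when its deposited detection p-value was at most 0.01. Of the 78 members, 12 were detected on all 20 arrays, 20 on 10 to 19 arrays, 36 on 1 to 9 arrays and 10 on no array, against 139, 283, 198 and 35 of all 655 probes. Thus 15.4% of the members were detected throughout, against 21.2% of all probes, and 12.8% were detected nowhere, against 5.3% of all probes. In map order, 47 of the 52 hairpins had an arm detected on at least 1 array. The 12 members detected everywhere were miR-540-3p and miR-337-5p on the Meg3 side, miR-433* in the Rtl1 antisense transcript, and miR-379, miR-1197, miR-323-3p, miR-758, miR-494, miR-679, miR-654-3p, miR-376b and miR-382* on the Mirg side. No probe of the Rian side reached 10 arrays. The 10 members detected on no array were miR-1193, miR-370, miR-376a*, miR-380-5p, miR-431, miR-431*, miR-496, miR-540-5p, miR-544 and miR-673-3p. The median GC content of the mature sequence was 46.5% for the 12 members detected throughout and 55.8% for the 10 detected nowhere. Between them it was 47.8% for the 19 sequences detected on 10 to 19 arrays and 47.75% for the 32 detected on 1 to 9 arrays. The ranges of the 12 and the 10 overlapped, each with a lowest value of 36.4%, and a link between GC content and detection was not tested.

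**Figure D1:**
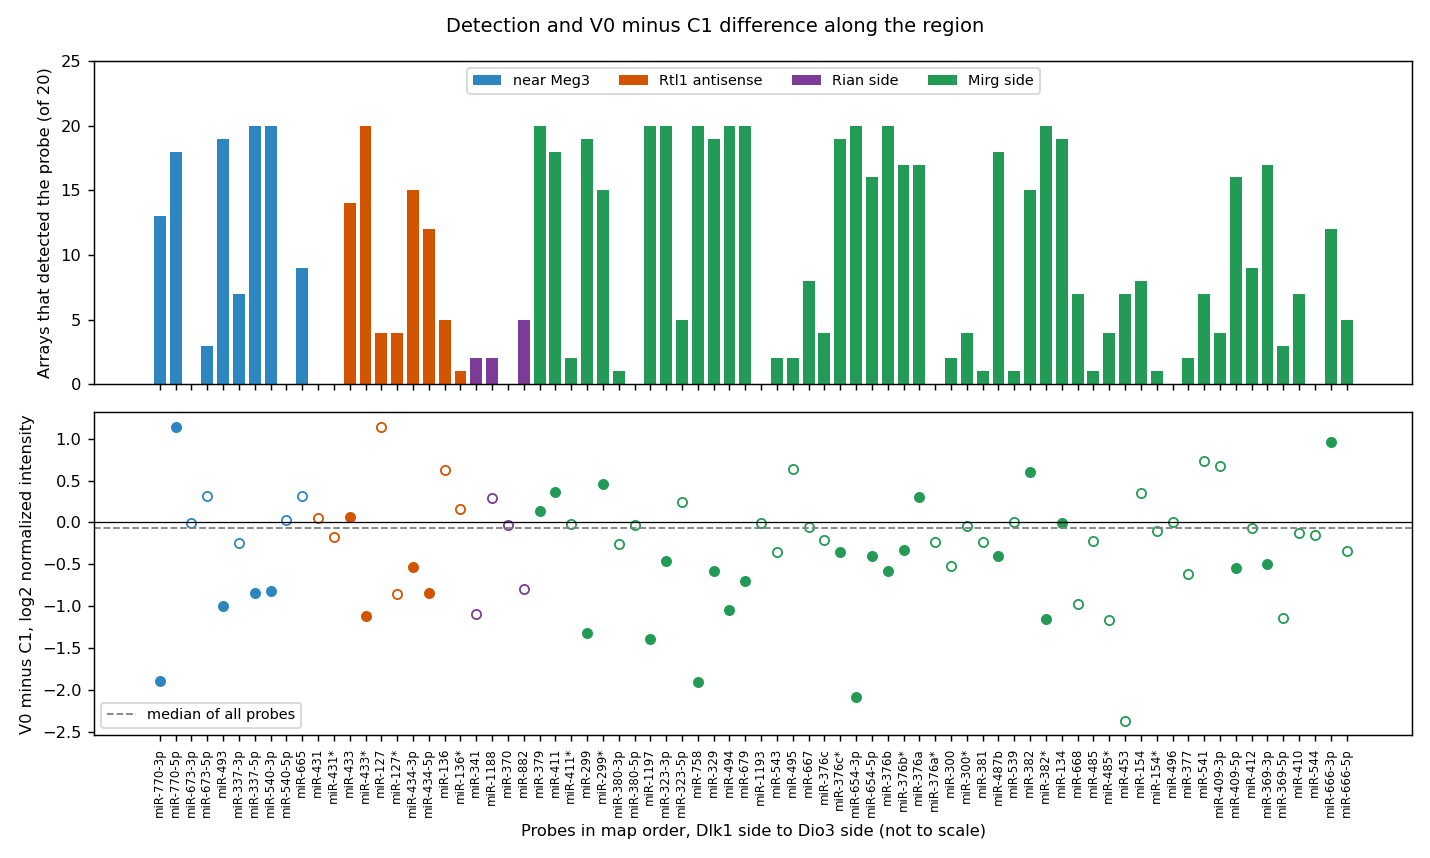
The upper panel gives the number of arrays, of 20, that detected each of the 76 probes in map order, coloured by the transcript they lie in. The lower panel gives the V0 minus C1 difference in log2 normalized intensity, filled where at least 10 arrays detected the probe, with the median of all probes at -0.06 as a dashed line. miR-544 and the arms of miR-666 had no hairpin entry in RefSeq and stand last, out of map order. For miR-540 an arm detected on all 20 arrays stands beside an arm of the same hairpin detected on none.

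The arrays differed in brightness. The V0 arrays detected 36 to 46 members, against 32 to 36 on the C1 arrays, and the median intensity of all probes before normalization was 622 to 1752 on the V0 arrays, against 319 to 841 on the C1 arrays. The arrays of each fraction with the fewest probes detected outside the region before normalization were C1 replicate 4, V3 replicate 4, V2 replicate 3, V1 replicate 3 and V0 replicate 1. Slide 1 held only V0, V1 and V2, slide 3 only V3 and C1, and slide 4 only C1 replicate 4, so that only slide 2 held all 5 fractions. Of 12 probes of epithelial miRNAs (the miR-200 family with miR-141 and miR-429, and miR-192, miR-194 and miR-215), all were detected on some array and 6 on all 20, and their summed normalized intensity was 312401 to 351219 on the V0 arrays, against 134302 to 323194 on the C1 arrays. In such bulk samples fewer cells of a type and less RNA per cell cannot be told apart.

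The V0 and C1 fractions, the villus tip and the crypt, are the ends of the axis. Of the 78 members, 29 were detected on all 4 arrays of V0 or of C1 and were tested. None passed a limma adjusted p of at most 0.05 with at least a 2-fold difference, where 0.623% of the 321 probes tested did. At an unadjusted p under 0.05, limma gave 0 members higher in V0, where 8.1% of the probes tested were, and 3 members lower in V0, miR-299, miR-382* and miR-758, which is 10.3% of the members tested where 8.72% of the probes tested were. Before normalization 2 of these 3, miR-299 and miR-382*, were higher in V0. The arrays of V0 and C1 overlapped for all 29, where 4.67% of the probes tested had every V0 array above and 3.12% every V0 array below the C1 arrays. The exact rank-sum test also gave 0 calls, but with 4 arrays against 4 its smallest two-sided p is 0.0286 and no probe could have passed once adjusted over the 321 tested. Over all 78 members, 24 were higher and 54 lower in V0, with a median log2 difference of -0.23. Over all 655 probes, 285 were higher and 370 lower, with a median of -0.06. Every undetected group was then set at its bound, or at no difference where no bound lay above 1. The median of the members was then close to 0 (11 higher, 39 lower), and that of all probes was 0 (225 higher, 296 lower). The counts are over probes, many of which share a hairpin or a transcript.

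miR-654-3p, an arm from the middle of the Mirg side, had the lowest V0 minus C1 difference of the members tested. Its log2 normalized intensity was 15.38, 12.53, 10.26 and 10.92 on the V0 arrays, against 15.11, 15.09, 12.59 and 14.65 on the C1 arrays. Most C1 arrays lay high, V0 replicate 1 lay with them and the other V0 arrays lay low, so that the fractions overlapped. The means were 12.28 ± 2.28 in V0 and 14.36 ± 1.20 in C1 (SD, n = 4 each), which differed by -2.09 (log2, SE 1.07, limma adjusted p = 0.296). V3 replicate 4 was also high at 15.46, against 10.83, 12.48 and 12.23 on the other V3 arrays. The contrast was in the intensity before normalization as well, where miR-654-3p read 31904 on V0 replicate 1 and 30878 on V3 replicate 4, and 2363 to 8623 on the other V0 arrays, against 7847 to 27097 on the C1 arrays.

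miR-758 and miR-1197, neighbours on the Mirg side, likewise had their highest mean in C1. miR-758 had 11.63, 10.94, 9.39 and 9.82 on the V0 arrays, against 12.31, 11.76, 10.88 and 14.44 on the C1 arrays, and the means differed by -1.90 (log2, SE 0.84, limma adjusted p = 0.268). miR-1197 had 11.93, 11.16, 10.11 and 10.29 on the V0 arrays, against 11.87, 11.78, 11.34 and 14.05 on the C1 arrays, and the means differed by -1.39 (log2, SE 0.71, limma adjusted p = 0.296). In both, C1 replicate 4 and V3 replicate 4 stood above all other arrays after normalization. Before normalization miR-1197 read 2223 on C1 replicate 4, 1191 on V3 replicate 4 and 1287 to 1840 on the other C1 arrays.

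miR-299, a marker of the region, had 11.18, 10.04, 9.84 and 10.10 on the V0 arrays, against 12.04, 11.66, 10.83 and 11.89 on the C1 arrays. V0 replicate 1 lay within the range of C1 and the other V0 arrays lay below it. The log2 difference was -1.31 (SE 0.52, unadjusted p = 0.0202, limma adjusted p = 0.237). Before normalization the same probe read 1040, 1418, 1767 and 1394 on the V0 arrays, against 1491, 1383, 1278 and 508 on the C1 arrays. The order of the fractions was thus not the same on both scales, and C1 replicate 4, the lowest C1 array before normalization, was the second highest after it.

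miR-494, miR-540-3p, miR-679 and miR-337-5p were detected on all 20 arrays and are among the members of highest mean intensity or the markers. miR-494 averaged 10.73 ± 0.75 in V0 and 11.78 ± 0.84 in C1 (SD, n = 4 each; log2 difference -1.05, SE 0.56, limma adjusted p = 0.296). miR-540-3p averaged 10.64 ± 0.84 in V0 and 11.45 ± 0.48 in C1 (SD, n = 4 each; log2 difference -0.81, SE 0.50, limma adjusted p = 0.319). miR-679 averaged 12.32 ± 0.51 in V0 and 13.03 ± 1.04 in C1 (SD, n = 4 each; log2 difference -0.70, SE 0.55, limma adjusted p = 0.409). None of the 4 passed the test, and miR-337-5p averaged 11.86 ± 0.69 in V0 and 12.70 ± 0.90 in C1 (SD, n = 4 each; log2 difference -0.84, SE 0.61, limma adjusted p = 0.389). For miR-679 the arrays C1 replicate 4 and V3 replicate 4 gave 14.56 and 14.39, and every other array lay between 11.86 and 13.71.

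**Figure D2:**
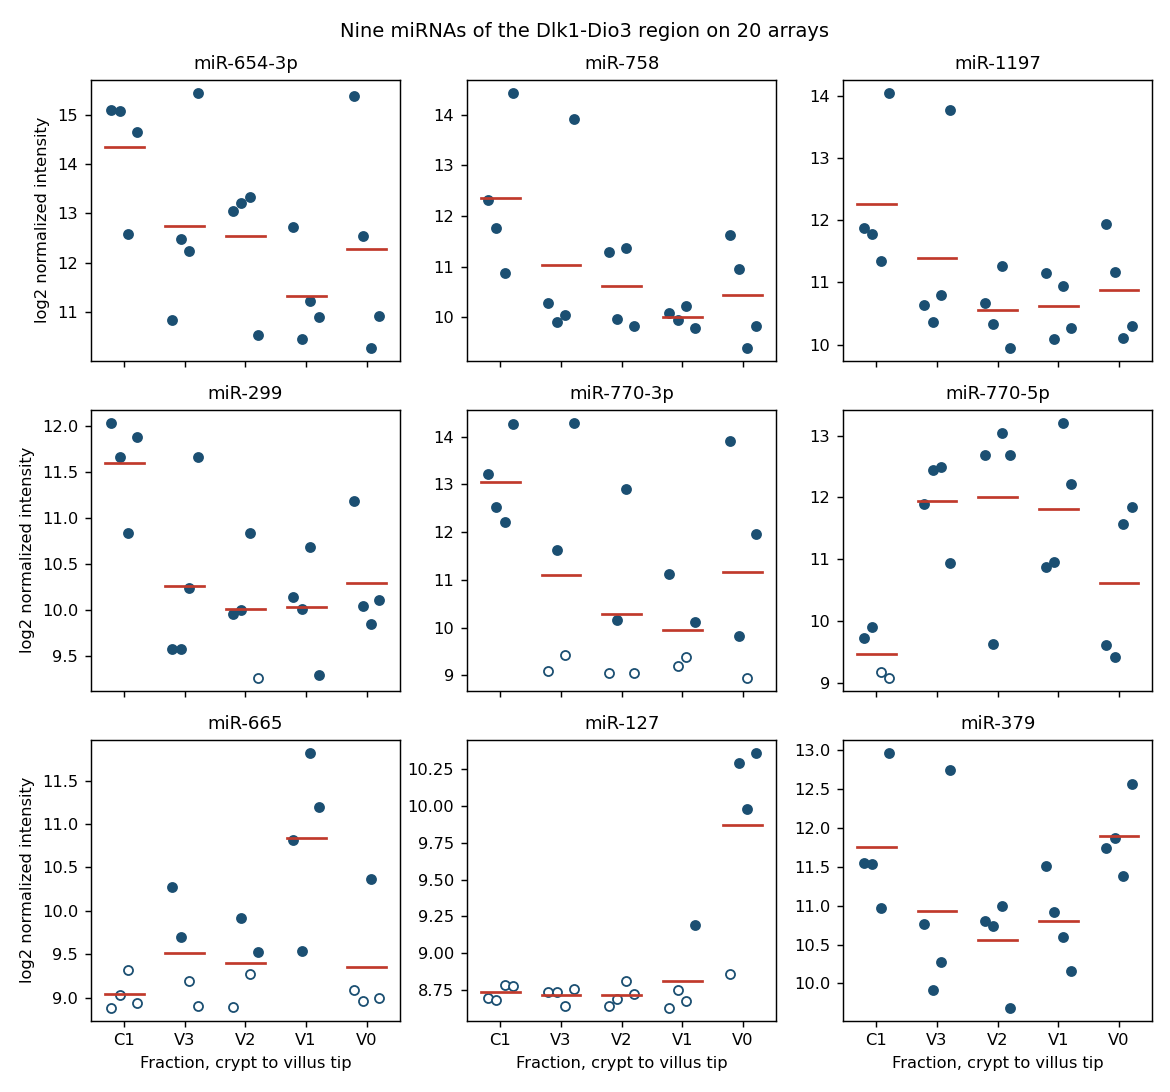
Each panel gives the log2 normalized intensity of 1 miRNA on the 20 arrays, by fraction in the order C1, V3, V2, V1, V0, with replicates 1 to 4 from left to right. Filled points were detected on that array and open points were not, and bars are the means of 4 arrays. miR-654-3p, miR-758, miR-1197, miR-299 and miR-770-3p lay highest in C1 on average, with single high arrays elsewhere, miR-770-5p was low on all C1 arrays, and miR-127 was detected on 3 V0 arrays, on 1 V1 array and nowhere else.

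miR-127, a marker of the region, was detected in V0 and not in C1. It lies in the Rtl1 antisense transcript, is fully complementary to the Rtl1 mRNA and is known for directing its cleavage in the placenta. Its log2 normalized intensity was 8.86, 10.29, 9.98 and 10.36 on the V0 arrays, against 8.70, 8.68, 8.79 and 8.78 on the C1 arrays. V0 replicates 2, 3 and 4 were detected and lay above the C1 arrays, while V0 replicate 1 and all C1 arrays were not detected and have no order among them. Against the lowest detected signal of each C1 array, miR-127 was at least 1.2-fold higher in V0. It was not tested, because it was detected on 3 and not on 4 V0 arrays. Of the 12 arrays between the ends, only V1 replicate 4 detected it, at 9.19. Before normalization it read 419, 1857, 1969 and 1744 on the V0 arrays, against 297, 340, 520 and 233 on the C1 arrays.

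miR-379, the first hairpin of the Mirg side and the arm with the seed shared with miR-1193, was detected everywhere. It had 11.75, 11.87, 11.38 and 12.57 on the V0 arrays, against 11.55, 11.54, 10.97 and 12.97 on the C1 arrays, and the means differed by 0.13 (log2, SE 0.58, limma adjusted p = 0.896). V0 and C1 were both above the fractions between them, of which V2 was the lowest at 10.55 ± 0.59 (SD, n = 4). Before normalization miR-379 read 1484, 5432, 5156 and 8169 on the V0 arrays, against 1025, 1284, 1359 and 762 on the C1 arrays, and on that scale every V0 array was above every C1 array, and the means differed by 1.99 (log2, SE 0.50, limma adjusted p = 0.0398). On that scale the median difference of all 655 probes was 0.73.

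miR-411, miR-382 and miR-376a completed the members with the highest differences among those tested, after miR-770-5p. miR-411 averaged 10.41 ± 0.41 in V0 and 10.04 ± 0.10 in C1 (SD, n = 4 each; log2 difference 0.37, SE 0.43, limma adjusted p = 0.588). miR-382 had 9.71, 11.05, 10.72 and 9.25 on the V0 arrays, against 9.45, 9.36, 9.53 and 9.96 on the C1 arrays, of which only 1 detected it (log2 difference 0.61, SE 0.39, limma adjusted p = 0.332). miR-376a rested on V0 replicate 4, with 10.16, 9.44, 9.22 and 12.04 on the V0 arrays, against 10.05, 9.97, 9.86 and 9.75 on the C1 arrays (log2 difference 0.31, SE 0.59, limma adjusted p = 0.760). Chosen after their values were seen, miR-136, miR-541 and miR-409-3p were also detected on V0 arrays (3, 3 and 2 of 4) and on no C1 array. All these V0 arrays were among replicates 2, 3 and 4, each of the miRNAs was also detected in V2, and none had a bound above 1-fold.

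Markers of other cells were summed on the same arrays. The summed normalized intensity of 8 probes of fibroblast and smooth muscle miRNAs (such as miR-143, miR-145 and miR-199a) was 75587 to 147433 on the V0 arrays, against 49031 to 87287 on the C1 arrays, and V0 replicates 2, 3 and 4 were the 3 highest of the 20 arrays. The 8 neuronal probes (such as miR-9, miR-124 and miR-218), of which 7 were detected on some array, summed to 21863, 20371 and 21315 on V0 replicates 2, 3 and 4 and to 4521 on V0 replicate 1, against 4105 to 15404 on the C1 arrays, where 6 of the 8 probes were undetected throughout. The 3 erythroid probes summed to 12976 to 24646 on the V0 arrays, against 2395 to 7576 on the C1 arrays, and 1 of the 3 was undetected in every fraction. The 5 striated muscle probes gave 8404 to 18337 in V0, against 3304 to 14446 in C1, the 2 endothelial probes 6900 to 48686, against 4193 to 25711, and the 7 leukocyte probes 99257 to 152566, against 15655 to 102218. The 3 probes of secretory cell miRNAs gave 81553 to 132275 in V0, against 78892 to 151338 in C1. V0 replicates 2, 3 and 4, on which miR-127 was detected, thus had the highest sums of both the neuronal and the fibroblast and smooth muscle list. The probes of a list did not all go one way. miR-218 averaged 12.61 in V0 and 10.85 in C1 and miR-9 averaged 10.50 in V0 and 9.06 in C1 (log2), while miR-138 averaged 9.45 in V0 and 10.75 in C1, and miR-124 was detected on only 3 arrays. miR-143 averaged 15.34 in V0 and 12.90 in C1, while miR-199a-5p averaged 12.60 in V0 and 12.93 in C1. The part of these cells in the values of miR-127 was not tested.

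The imprinted miRNAs of other loci (miR-335, miR-483, miR-675, miR-296 and miR-298, with 9 probes) served for comparison. All 9 were detected on some array and 1 on all 20, and their summed normalized intensity was 6177 to 23733 in V0, against 8079 to 22202 in C1, a wide overlap.

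The arms of a hairpin come from 1 precursor, so their differences between fractions can be set side by side. Of the 52 hairpins, 24 had both arms on the array, of which 19 had both arms detected on some array, 4 had 1 detected arm only (miR-376a, miR-380, miR-540 and miR-673) and miR-431 had none. In 7 hairpins both arms were detected on at least 10 arrays, and in 4 of these, miR-770, miR-299, miR-382 and miR-433, the arms had V0 minus C1 differences of opposite sign. None of these arms passed the test, and miR-299* was not tested. miR-382 gave 0.61 (SE 0.39) and miR-382* gave -1.15 (SE 0.49, limma adjusted p = 0.268). miR-433 gave 0.06 (SE 0.33) and miR-433* gave -1.12 (SE 0.61). miR-299* had 9.18, 11.18, 11.21 and 11.36 on the V0 arrays, against 9.38, 9.29, 9.58 and 12.85 on the C1 arrays, a difference of 0.46 where miR-299 gave -1.31. Before normalization only miR-770 of these 4 hairpins kept arms of opposite sign, and both arms were higher in V0 in the other 3 (miR-299 by 0.36 and miR-299* by 1.996, miR-382 by 1.60 and miR-382* by 0.68, miR-433 by 1.03 and miR-433* by 0.48). On the normalized scale miR-299* was high within V0 on replicates 2, 3 and 4, the V0 arrays on which miR-299 was low. In C1 miR-299* was high on replicate 4 only.

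miR-770 had the widest split. It is the first hairpin on the Meg3 side and lies in the Meg3 transcript. miR-770-5p had 9.61, 9.41, 11.58 and 11.84 on the V0 arrays, against 9.73, 9.90, 9.18 and 9.08 on the C1 arrays. miR-770-3p had 13.91, 9.83, 8.95 and 11.96 on the V0 arrays, against 13.21, 12.53, 12.21 and 14.26 on the C1 arrays. The 5p arm was near the detection limit throughout C1, with 2 of 4 arrays detected, where the 3p arm was detected on all 4. The V0 minus C1 difference was 1.14 (SE 0.75, limma adjusted p = 0.344) for miR-770-5p and -1.90 (SE 1.16, limma adjusted p = 0.319) for miR-770-3p, a gap of 3.04 on the log2 scale between the arms that was not tested. For miR-770 the split was there before normalization, where miR-770-5p read 579, 805, 5730 and 5180 on the V0 arrays, against 462, 592, 650 and 260 on the C1 arrays. miR-770-3p then read 12865, 1168, 783 and 5425 on the V0 arrays, against 6408, 4824, 5255 and 2713 on the C1 arrays.

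**Figure D3:**
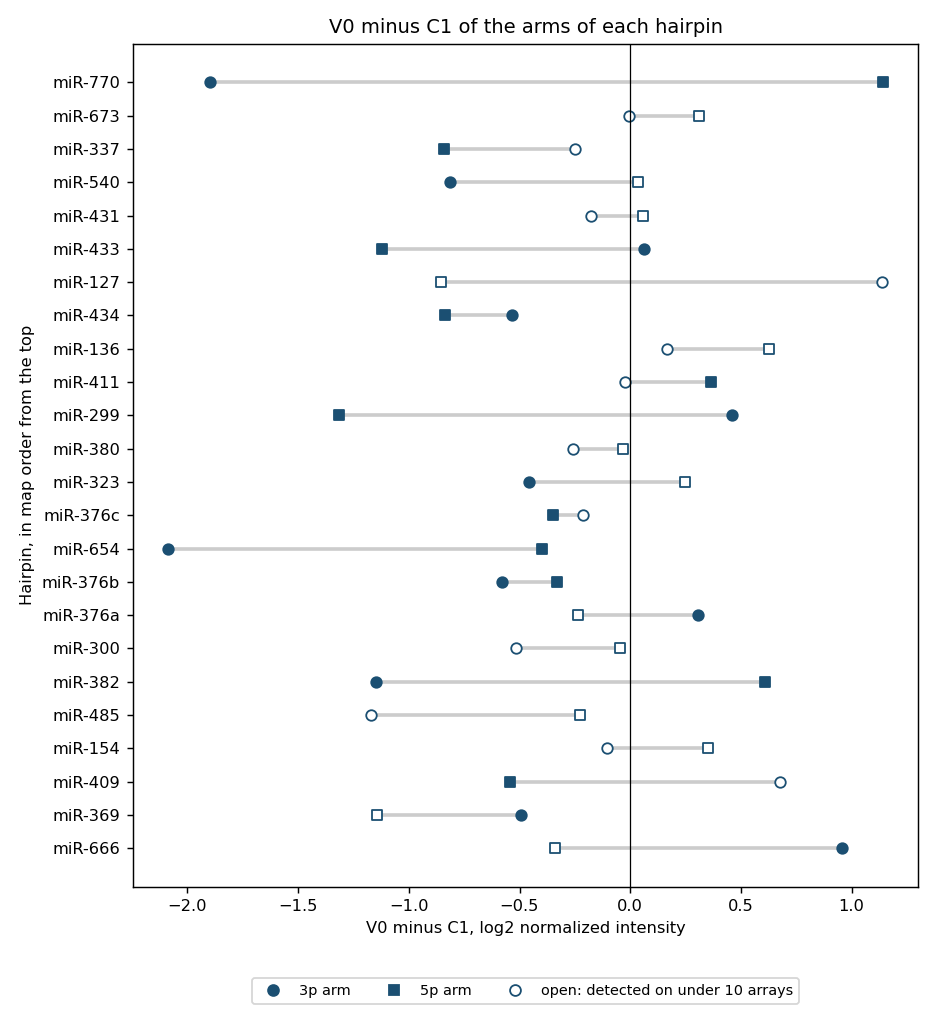
Each row is a hairpin with both arms on the array, and the points give the V0 minus C1 difference in log2 normalized intensity of the 3p arm (circle) and the 5p arm (square). Filled points were detected on at least 10 arrays. miR-770 spans the widest gap, from -1.90 for the 3p arm to 1.14 for the 5p arm.

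The fractions between the ends were each compared with C1. In V1, just below the tip, 29 members were tested and none passed, where 0.578% of the 346 probes tested did. At an unadjusted p under 0.05, 2 members were higher in V1 (miR-665 and miR-770-5p, 6.9% of the members tested where 11% of the probes tested were) and 9 were lower (miR-1197, miR-299, miR-376b*, miR-382*, miR-433*, miR-494, miR-654-3p, miR-758 and miR-770-3p, 31% of the members tested where 13.6% of the probes tested were). The V1 arrays all lay above the C1 arrays for 2 members, where 5.2% of the probes tested did so, and all below them for 8 members, or 27.6%, where 17.1% did. These 8 were the 9 above without miR-382* and miR-654-3p and with miR-493. Before normalization 5 of the 9 had a V1 mean above that of C1 (miR-1197 by 0.08, miR-299 by 0.11, miR-382* by 0.28, miR-433* by 0.24 and miR-494 by 0.63), and miR-376b*, miR-654-3p, miR-758 and miR-770-3p stayed below it. For miR-376b* this rested on C1 replicate 3 alone. That array read 21889, where the other C1 arrays read 358 to 646 and the V1 arrays 742 to 997. miR-654-3p had the lowest V1 mean relative to C1 among the members detected on all 20 arrays, at 12.72, 10.45, 11.21 and 10.90 on the V1 arrays, against 15.11, 15.09, 12.59 and 14.65 on the C1 arrays (log2 difference -3.04, SE 1.07, limma adjusted p = 0.159). miR-770-3p differed by -3.09 (SE 1.16, limma adjusted p = 0.159).

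miR-665, from a hairpin next to miR-540 on the Meg3 side, was the member of smallest p in V1. It had 10.82, 9.54, 11.82 and 11.20 on the V1 arrays, against 8.88, 9.03, 9.32 and 8.94 on the C1 arrays. It was detected on 4 V1 arrays and on no C1 array, and miR-665 was at least 2.35-fold higher in V1 (limma adjusted p = 0.134). It entered the test only through V1, where it was high. miR-665 passed the threshold with V1 replicate 2 left out (limma adjusted p = 0.0190) and with slide as a fixed block (limma adjusted p = 0.0478). Outside V1 it was detected on 2 V3 arrays, 2 V2 arrays and 1 V0 array, with 10.37 on V0 replicate 3 and 8.97 to 9.10 on the other V0 arrays.

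miR-770-5p was higher than in C1 by about the same amount in V3, V2 and V1, with no call in any of them. By fraction, from the crypt up, its means were 9.47 ± 0.40 (C1), 11.94 ± 0.72 (V3), 12.01 ± 1.60 (V2), 11.82 ± 1.11 (V1) and 10.61 ± 1.27 (V0) (SD, n = 4 each). The V3, V2 and V1 means lay within 1 SD of each other. The log2 differences from C1 were 2.47 in V3 (SE 0.75, limma adjusted p = 0.312), 2.54 in V2 (SE 0.76, limma adjusted p = 0.178) and 2.34 in V1 (SE 0.76, limma adjusted p = 0.148). In V3 and V1 every array was above every C1 array, and in V2 replicate 2, at 9.63 against 12.69 to 13.04 on the other V2 arrays, lay among them. As 2 of 4 C1 arrays detected it, miR-770-5p entered each of these tests only through the fraction set against C1, where it was high. Without V2 replicate 2 the V2 difference of miR-770-5p passed the threshold (3.33, SE 0.68, limma adjusted p = 0.0196). With slide as a fixed block miR-770-5p passed in V1, where it differed from C1 by 3.51 (SE 0.72, limma adjusted p = 0.0141), and in V2, by 3.71 (SE 0.72, limma adjusted p = 0.0079). In that fit C1 replicate 4, alone on its slide, carries no weight. miR-770-3p had its highest mean where miR-770-5p had its lowest, with 13.06 (C1), 11.11 (V3), 10.29 (V2), 9.96 (V1) and 11.16 (V0), and was undetected on 7 of the 16 arrays outside C1.

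In V2, 25 members were tested and none passed, where 0.645% of the 310 probes tested did. At an unadjusted p under 0.05, miR-770-5p was higher in V2 (4% of the members tested where 6.45% of the probes tested were) and 7 members were lower (miR-1197, miR-299, miR-382*, miR-433*, miR-434-3p, miR-493 and miR-770-3p, 28% where 13.5% of the probes tested were). All V2 arrays lay below the C1 arrays for miR-1197, miR-433* and miR-540-3p (12% of the members tested where 12.6% of the probes tested did so) and above them for none (2.9% of the probes tested). Before normalization 3 of the 7 had a V2 mean above that of C1 (miR-382* by 0.36, miR-433* by 0.14 and miR-493 by 0.15), miR-299 differed by -0.02, miR-1197 by -0.06, miR-434-3p by -0.67 and miR-770-3p by -1.99. In V3, next to the crypt, 25 members were tested and none passed, where 0.361% of the 277 probes tested did. Again miR-770-5p was higher (4% where 5.78% were), and miR-299, miR-376b*, miR-382* and miR-434-3p were lower (16% where 3.61% were) at an unadjusted p under 0.05. Every V3 array was above the C1 arrays for miR-770-5p (4% where 1.44% of the probes tested were) and below them for miR-376b* (4% where 0.361% were). The 4 lower members had means below C1 before normalization too, at -0.55 for miR-299, -1.26 for miR-376b*, -0.18 for miR-382* and -1.09 for miR-434-3p. For miR-376b* C1 replicate 3 read 21889 on that scale, the other C1 arrays 358 to 646 and the V3 arrays 312 to 750. For miR-434-3p C1 replicate 2 read 6734, the other C1 arrays 453 to 899 and the V3 arrays 361 to 684. The lower V3 means of miR-376b* and miR-434-3p on that scale thus rest largely on those single arrays. miR-299 differed from C1 by -1.60 in V2 (SE 0.53, limma adjusted p = 0.178) and by -1.34 in V3 (SE 0.52, limma adjusted p = 0.476), and without V3 replicate 4 the V3 difference was -1.81 (SE 0.46, limma adjusted p = 0.0398) and passed. The 4 comparisons share the C1 arrays, so that a high C1 array enters all of them.

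Over the whole axis, 32 members were detected on all 4 arrays of some fraction. In the linear trend over the 5 fractions none passed, where 0% of the 384 probes tested did, and in the test of any difference among the fractions none passed, where 0.26% did. At an unadjusted p under 0.05, 0 members had a slope above 0, where 10.4% of the probes tested had, and 6 had a slope below 0 (miR-758, miR-494, miR-382*, miR-654-3p, miR-299 and miR-1197), or 18.8% where 13.8% of the probes tested did. Without normalization 4 of these 6 had a slope above 0 (miR-494 0.19, miR-382* 0.18, miR-299 0.14 and miR-1197 0.10 per step), and miR-654-3p and miR-758 kept a slope below 0 at -0.32 and -0.09. The slope of miR-758 was -0.48 per step (SE 0.19, limma adjusted p = 0.164) and that of miR-654-3p was -0.56 per step (SE 0.24, limma adjusted p = 0.184). Without V0 replicate 1 the slope of miR-654-3p was -0.79 per step (SE 0.21, limma adjusted p = 0.0414) and passed. In the test of any difference, miR-770-5p (F = 4.29), miR-665 (F = 4.15), miR-299 (F = 3.30) and miR-434-3p (F = 2.93) had an unadjusted p under 0.05, or 12.5% of the members tested where 8.59% of the probes tested did, and limma adjusted p of 0.436 for miR-770-5p and miR-665.

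By the order of the means, 9 of the 12 members detected everywhere were highest in C1, where 48.2% of the 139 probes detected everywhere were, 2 in V3 and 1 (miR-379) in V0. Their lowest fraction was V1 for 7, V2 for 4 and V0 for 1, where 36.7%, 16.5% and 15.1% of the 139 probes were lowest there. The 12 members had a median V0 minus C1 difference of -0.95, against -0.53 for the 139 probes. Neither order held before normalization. On that scale 8 of the same 12 were highest in V0, where 38.8% of the 139 probes were, 2 in C1, 1 in V2 and 1 in V1. The median difference of the 12 was then 0.67, against 0.74 for the 139 probes. Over all 78 members the median V0 minus C1 difference was 0.65 before normalization, with 71 higher and 7 lower. Over all probes it was 0.73, with 585 higher and 70 lower. With each array centred on its median the median of the members was -0.40 (all probes -0.32), and with normexp background correction it was -0.57 (all probes -0.15). The sign of the median of the cluster thus depended on the scaling. It was below the median of all probes on these scales (members minus all probes -0.17 on the normalized values), but above it by 0.04 with the number of detected probes of each array as a covariate, and without C1 replicate 4 the members minus all probes came to -0.0869.

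**Figure D4:**
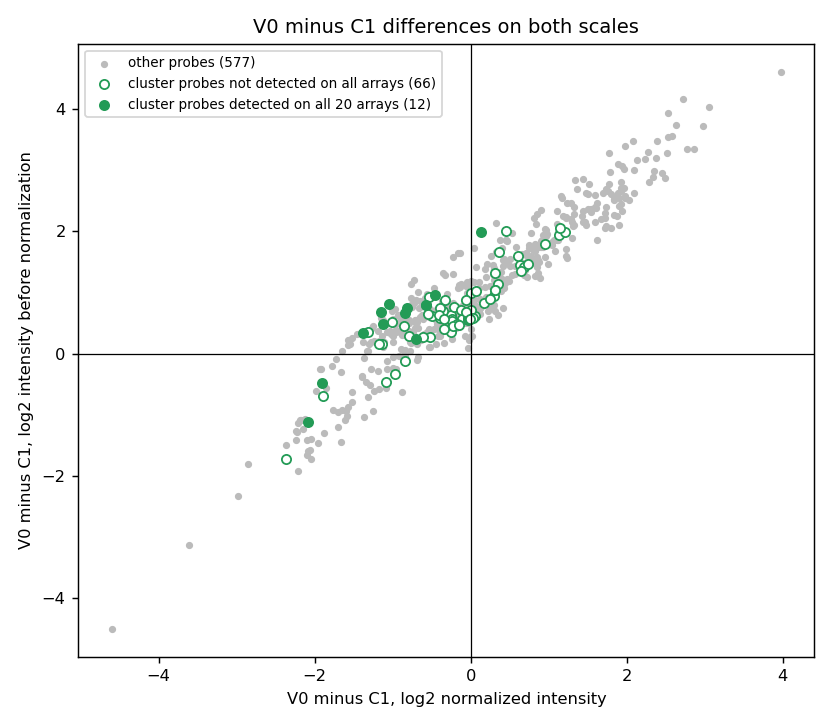
Each point is a probe, with its V0 minus C1 difference in log2 normalized intensity on the horizontal axis and the same difference before normalization on the vertical axis. Grey points are the other probes of the array, open green points the cluster probes not detected on all arrays and filled green points the 12 detected everywhere. Most cluster probes lie left of 0 on the horizontal axis and above 0 on the vertical axis, and miR-654-3p and miR-758 lie below 0 on both.

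miR-654-3p, miR-758 and miR-770-3p kept a lower V0 mean on both scales. The V0 minus C1 difference before normalization was -1.11 for miR-654-3p, -0.47 for miR-758 and -0.70 for miR-770-3p, against -2.09, -1.90 and -1.90 after it. For miR-758 C1 replicate 4 read 4765 before normalization, the other C1 arrays 1291 to 2176 and the V0 arrays 1086 to 2971. Without the array of fewest detected probes in each fraction, the differences before normalization were -0.04 (miR-758), -2.16 (miR-654-3p) and -1.68 (miR-770-3p). The lower V0 mean of miR-758 before normalization thus rests largely on C1 replicate 4. For miR-770-5p the differences were 2.06 before normalization and 1.14 after it, and for miR-379 they were 1.99 and 0.13. miR-411, at 1.66 before normalization and 0.37 after it, was called in the trend only without normalization (slope 0.41 per step, SE 0.12, limma adjusted p = 0.0472), as was miR-433 (0.27 per step, SE 0.08, limma adjusted p = 0.0481). Without normalization the median V0 minus C1 difference of all probes was 0.73, so these slopes include a shift that most probes share.

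**Figure D5:**
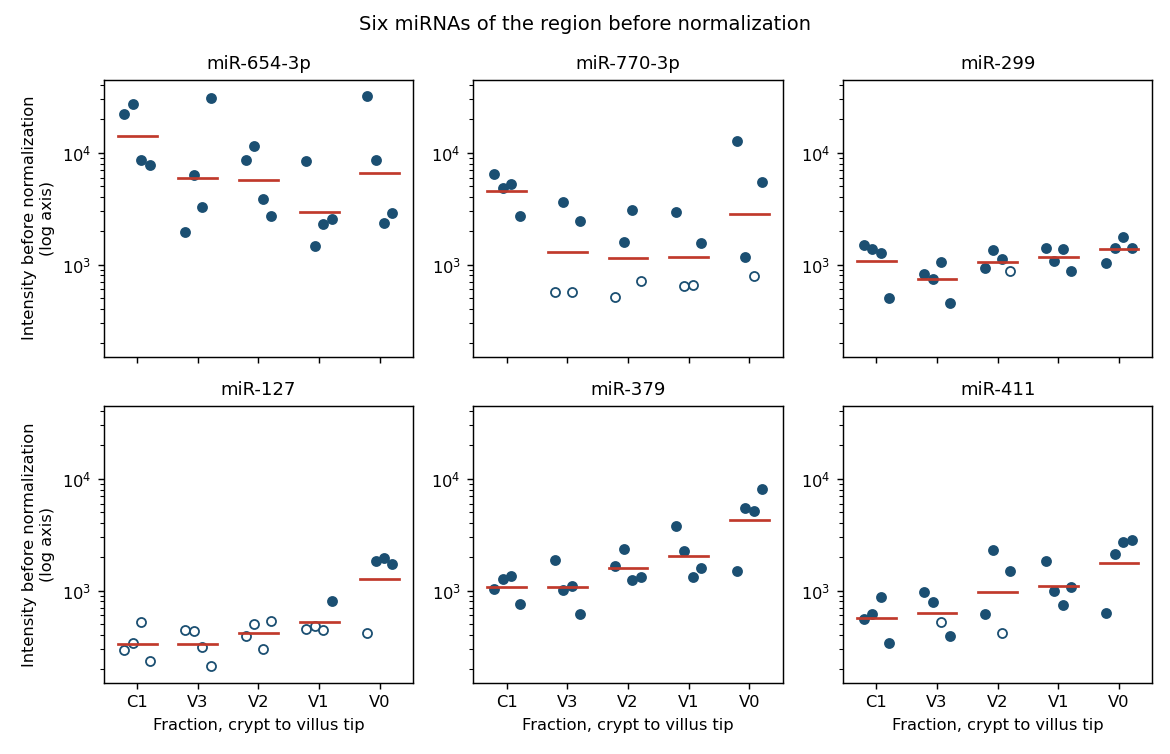
Each panel gives the intensity of 1 miRNA before normalization on the 20 arrays, on a log axis that all panels share, by fraction from C1 to V0 with replicates 1 to 4 from left to right. Filled points were detected in the normalized table, and bars are geometric means of 4 arrays. miR-654-3p reads 31904 on V0 replicate 1 and 30878 on V3 replicate 4, and miR-127 and miR-379 read highest on V0 replicates 2, 3 and 4.

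The counts of calls moved with the arrays included. With the array of fewest detected probes left out of each fraction, a setting chosen after the data were seen, the V0 and C1 comparison called 8 of 29 members (27.6%), all lower in V0, where 19.3% of the probes tested were called. They were miR-654-3p (log2 difference -3.02, SE 0.96), miR-758 (-1.60, SE 0.48), miR-299 (-1.52, SE 0.35), miR-493 (-1.50, SE 0.26), miR-540-3p (-1.43, SE 0.22), miR-1197 (-1.14, SE 0.34), miR-323-3p (-1.12, SE 0.29) and miR-494 (-1.01, SE 0.30). Their limma adjusted p ran between 0.00126 for miR-540-3p and 0.0367 for miR-654-3p. On the same arrays without normalization none of these 8 was called, and 3 others were, all higher in V0, which were miR-379 (2.33, SE 0.37, limma adjusted p = 0.00157), miR-411 (1.91, SE 0.45, limma adjusted p = 0.0149) and miR-382 (1.85, SE 0.51, limma adjusted p = 0.0276), where 12.8% of the probes tested were called. miR-382, detected on 1 of the C1 arrays, entered the test only through V0, where it was high. The arrays left out were chosen by their own readings, which narrows the spread within fractions, so these counts are a description and not a further test.

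Several probes read high on a single array. For 6 members, or 7.69%, the highest of the 20 arrays stood at least 2 log2 units above the next, where 7.48% of all probes did. miR-666-3p had 14.59 on V0 replicate 1 and 9.05 to 9.24 on the other V0 arrays, against 9.33 to 9.75 on the C1 arrays, and read 18570 before normalization where no other array passed 878. miR-453 had 15.06 on C1 replicate 4 and 12.85 on C1 replicate 2, and miR-341 had 12.88 on C1 replicate 3. miR-485* and miR-127* had their highest values, 13.15 and 12.93, on C1 replicate 4, where they read only 845 and 758 before normalization. Differences of means in these members, such as 0.96 between V0 and C1 for miR-666-3p and -2.37 for miR-453, rest on those arrays.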

How the data were processed

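Per the labels and the methods, the authors took the average bead intensity of every probe and quantile-normalized the 20 arrays in 1 set with no background subtraction. Intensity on both scales was deposited, with detection p-values. The series' own value table is the same as the normalized one (largest difference 0). No genome build is named in the files. Total RNA had been cleaned on RNeasy columns, per the labels.

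The normalized intensity deposited by the authors was taken to log2 here, and the models were run with limma 3.58.1 under R 4.3.3 (functions lmFit and eBayes, all 20 arrays, 1 mean per fraction, or a slope over the fractions). Benjamini-Hochberg adjustment was over all probes of the table that all 4 arrays of 1 or the other fraction compared had detected (p at most 0.01), or all 4 of any fraction for the slope and the F test. The threshold for a call was an adjusted p of 0.05 or less and, between 2 fractions, a difference of at least 2-fold. A fold bound compares the mean of a fraction with, per array of the undetected fraction, the lowest signal detected or the probe's own, whichever is higher. The fit was tested on simulated data. A paired rank test, which the study names, could not be used because arrays are not tied to mice. The 4 against 4 exact rank-sum test cannot go below a two-sided p of 0.0286. Alternatives changed the normalization, background, detection filter, slide, arrays, spread model and test.

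Named were the 5 markers miR-127, miR-299, miR-379, miR-494 and miR-540-3p, the 8 members of highest mean, any called member, the 5 highest and 5 lowest V0 minus C1 differences among those tested, tested members with no overlap between V0 and C1 arrays, and the 3 smallest p of the trend and of the F test, and others only as stated. The members, marker lists and parts of the region were chosen with earlier results of these data known. The number of arrays limits the precision. Other experiments of the study were not used here. Mature sequences and positions are from RefSeq.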

Additional observations from a re-analysis of the deposited data

Results flagged for a closer look

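Of 90 groups of 4 arrays examined for the 17 named members and for the number of members detected, 9 held an array far from the other 3 by Dixon's test, where chance flags about 5% of groups. On V3 replicate 4, a dim array, miR-540-3p read 12.40 (log2 normalized, the other V3 arrays 10.26 to 10.56), miR-1197 read 13.78 (10.36 to 10.80) and miR-758 read 13.93 (9.90 to 10.28). On V0 replicate 1, miR-540-3p read 11.89 (10.08 to 10.32 on the other V0 arrays) and miR-679 read 13.08 (11.97 to 12.12). miR-654-3p read 10.53 on V2 replicate 4 (13.05 to 13.34 on the other V2 arrays), and miR-770-5p read 9.63 on V2 replicate 2 (12.69 to 13.04). miR-376a read 11.42 on V1 replicate 3 (9.24 to 9.43 on the other V1 arrays), and miR-665 read 10.37 on V0 replicate 3 (8.97 to 9.10). Before normalization miR-540-3p read 557 and miR-1197 read 1191 on V3 replicate 4, both the lowest of V3, where the other 3 arrays gave 1186 to 1556 and 1406 to 1731, and miR-758 read 1480, where they gave 918 to 1262. The cause of these values was not tested.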

How the results depend on the processing

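No member was called with the values quantile normalized here, with arrays centred, with neqc, with or without the detection filter or with detected probes per array as a covariate. Leaving out miR-153 and miR-1190 changes no fit, so it could only give 0 calls. Slide 2 alone, which holds 1 C1 array assumed to vary like the other fractions, and the exact rank-sum test, which could not pass adjustment, also gave 0 and say nothing of stability. With no normalization, where the median V0 minus C1 difference of all probes was 0.73, the counts were 1 for V0 (miR-379) and 3 for the trend (miR-379, miR-411, miR-433). V1 gave 2 with slide as a fixed block (miR-665, miR-770-5p), and 1 with only V1 and C1 in the fit (miR-770-3p) or with robust eBayes (miR-665). V2 gave 1 with slide as a fixed or random block (miR-770-5p). Leaving out each array in turn gave 0 to 1 call for V1 (miR-665 without V1 replicate 2), V2 (miR-770-5p without V2 replicate 2), V3 (miR-299 without V3 replicate 4) and the trend (miR-654-3p without V0 replicate 1), and 0 throughout for V0 and for any difference. Without the array of fewest detected probes in each fraction, chosen after seeing the data, the counts were 8 for V0, 8 for V1, 7 for V2 and 10 for V3. Of all probes tested, 19.3% (V0), 14.7% (V1), 14.2% (V2) and 17% (V3) were called. On the same arrays without normalization 3 members were called for V0 and 0 for V1, V2 and V3. Members were also called there in the trend and in the test of any difference on the normalized values. The shares of all probes called in the trend and in the test of any difference, and under the other settings with calls above, are not reported here. The V0 minus C1 median of the members minus that of all probes, -0.17 as reported, was -0.0795 with no normalization and, by construction, the same with centring, -0.420 with neqc, -0.0891 with slide as a fixed block, -0.0201 on slide 2 alone, 0.038 with the covariate, -0.0837 without the arrays of fewest detected probes, and -0.156 to -0.0869 over the arrays left out 1 at a time (-0.0869 without C1 replicate 4). Of 1816 alternative values of the named members, 89 changed sign, 35 of them among the 73 values with no normalization. The 1816 include settings that alter only the filter, test, spread model, fractions fitted or set of members. Those settings leave each value as it was and could not change a sign. No paired analysis was possible because no label ties an array to a mouse, and the replicate numbers only name arrays. Dim arrays limit what the V0 and C1 comparison can show.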
